A study of Mus musculus and Rattus norvegicus with 85 samples.

Results

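This account covers 47 genes of DNA repair in the lungs of mice and rats that inhaled chloroprene, the chlorinated diene from which neoprene rubber is made. The genes were taken by symbol, from a list made with earlier results of these data known. Every probe set annotated to 1 of the 47 symbols was taken from each species' array. In the mouse 46 of the 47 symbols had a probe set that names a single gene (102 of 45101 probe sets), and 45 were bright enough to be tested among 13796 genes. In the rat 46 symbols had one as well (61 of 31099 probe sets), and 40 were tested among 11010 genes.

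Female B6C3F1/Crl mice and female rats, whose strain the labels spell both F344/NCrl and F334/NCrl, were 10 weeks old when exposure began. They breathed chloroprene in air, whole-body, for 6 hours a day on 5 days a week, and were killed on day 5 after 5 exposure days or on day 19 after 15. RNA came from the right lung lobes of single animals, with 5 animals and 5 arrays in each group. The mouse groups were 0, 0.3, 2, 13 and 90 ppm after 5 days and 0.3, 2, 13 and 90 ppm after 15 days. The rat groups were 5, 30, 90 and 200 ppm at each time. Mice at 0 ppm after 15 days and rats at 0 ppm were not analysed here. There the lowest concentration served as the reference, so that a change already present at 0.3 ppm or 5 ppm is not seen. All values are log2 signals as deposited, so that 1 unit is a doubling of signal. Lung epithelial markers were bright on every array: the mean log2 level of the alveolar type 2 list ran from 13.97 to 14.30 in mice and from 13.45 to 13.72 in rats.

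Cells mend DNA by several routes. In base excision repair a glycosylase such as Ogg1, Mpg, Ung or Tdg removes a damaged base, Apex1 cuts the strand, and Polb, Xrcc1 and a ligase fill and seal the gap. Nucleotide excision repair cuts out a short stretch around a bulky lesion, the Fanconi proteins unhook crosslinks, broken ends are rejoined by end joining or copied from the sister strand, and translesion polymerases such as Rev3l copy past damage that is still in place. Chloroprene is oxidised in the lung to epoxides that can react with DNA bases, which is why these routes bear on its toxicology.

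In mouse lung few of the DNA repair genes were called. At 90 ppm for 5 days against 0 ppm, 4 of 45 members passed the test (8.89%), 1 higher and 3 lower, where 16.3% of all 13796 genes passed, 8.99% higher and 7.35% lower. The median change of the members was 0.02 log2, beside 0.01 for all genes, and the median size of a change was 0.10 for members and 0.12 for all genes. The 4 were Ung, Mre11a and Fancc, which were lower, and Fancd2, which was higher. None of them reached a 1.5-fold change. The 95% confidence interval of the change lay wholly within 1.5-fold in either direction for 39 of the 45 members. The exceptions were Ung, Rad50, Nbn, Atr, Lig4 and Rad18. The count of called members was 2 without any 1 of control mice 101, 102, 104 and 105 or exposed mice 165, 166 and 168.

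Ung encodes the uracil glycosylase that removes uracil from DNA. Its log2 signal in the 5 mice at 0 ppm was 6.97, 7.0, 7.05, 7.20 and 7.26, and at 90 ppm it was 6.49, 6.56, 6.71, 6.76 and 6.98. Of the exposed mice 4 lay below every control mouse and 1 lay within the control range. The exposed readings of 6.49 and 6.56 lay under the signal filter of 6.67. The change was -0.40 ± 0.12 (SE, n = 5 against 5, adjusted p = 0.0155). At 13 ppm for 5 days Ung was almost as far from the controls, with values of 6.45, 6.56, 6.72, 6.77 and 7.05, but no member passed there. After 15 days at 90 ppm the Ung change was -0.11 ± 0.12 (SE, adjusted p = 0.689).

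Mre11a encodes the nuclease that trims broken DNA ends in a complex with Rad50 and Nbn. Its signal was 7.24, 7.28, 7.46, 7.46 and 7.48 at 0 ppm and 6.84, 7.08, 7.10, 7.22 and 7.23 at 90 ppm for 5 days. The groups did not overlap, although their ranges almost touched. The change was -0.29 ± 0.08 (SE, adjusted p = 0.0107). A second probe set of the gene gave 0.05, with an adjusted p of 0.760, so the fall was seen on 1 of the 2 probe sets kept. Its partners did not pass: the change was -0.29 for Rad50 and -0.19 for Nbn, each with more spread between animals.

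The crosslink genes Fancc and Fancd2 moved in opposite directions. Fancc, a subunit of the Fanconi core complex, read 8.95, 8.97, 9.01, 9.03 and 9.08 at 0 ppm against 8.59, 8.64, 8.67, 8.71 and 9.02 at 90 ppm. Mouse 165, at 9.02, stood apart from the other exposed mice and lay within the control range. The change was -0.28 ± 0.10 (SE, adjusted p = 0.0374) on the brightest probe set, while 2 further probe sets gave -0.01 and -0.06. After 15 days Fancc differed by nearly the same amount, -0.29 ± 0.10 (SE, adjusted p = 0.0571), and did not pass, although the groups did not overlap: 8.97, 8.98, 9.02, 9.05 and 9.20 at 0.3 ppm against 8.55, 8.57, 8.81, 8.90 and 8.95 at 90 ppm.

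Fancd2 is the protein that the core complex marks with ubiquitin at a stalled fork. Its signal was 6.54, 6.71, 6.74, 6.91 and 6.92 at 0 ppm and 6.96, 7.01, 7.04, 7.07 and 7.18 at 90 ppm for 5 days. Every exposed mouse lay above every control mouse. Fancd2 was the dimmest mouse member tested, with a mean of 6.78 beside the signal filter of 6.67, and the lowest control reading lay under that filter. The change was 0.29 ± 0.10 (SE, adjusted p = 0.0377). As single mice were left out, the Fancd2 call was lost in 6 of 10 fits and that of Fancc in 8, against 2 for Ung and 1 for Mre11a. After 15 days its change was 0.20 ± 0.10 (SE, adjusted p = 0.245).

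At 90 ppm for 15 days against 0.3 ppm, 1 of 45 members passed (2.22%) and was higher, beside 7.97% of all genes, 4.68% higher and 3.29% lower. It was Xpa, the scaffold protein that checks the lesion in nucleotide excision repair. Its signal was 8.07, 8.20, 8.28, 8.35 and 8.35 at 0.3 ppm and 8.33, 8.65, 8.68, 8.76 and 8.81 at 90 ppm. All but mouse 177 of the exposed mice lay above the reference range. The change was 0.40 ± 0.09 (SE, adjusted p = 0.00406), a 1.32-fold rise. A second probe set gave 0.12. After 5 days at 90 ppm the Xpa change was -0.07 ± 0.09 (SE, adjusted p = 0.696), and the difference between the times was not called. The mice at 0 ppm after 5 days had a mean of 8.49, which lies between the 2 groups compared at 15 days.

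The Xpa call rested on mice whose labels conflict. Of the 5 mice at 90 ppm and the 5 at 0.3 ppm in the 15-day comparison, 3 in each group carry a duration field of 5 days while the title says 15. Without mice of conflicting duration 2 were left in each group, the Xpa change was 0.33 (adjusted p = 0.208) and no member passed. Without the mice whose number carries a letter in the title, 3 against 3, it was 0.37 (adjusted p = 0.0654). Leaving out single mice raised the count of called members in this comparison, to 4 without mouse 177, 3 without mouse 181, 2 without mouse 180 and 2 without reference mouse 126.

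**Figure D1:**
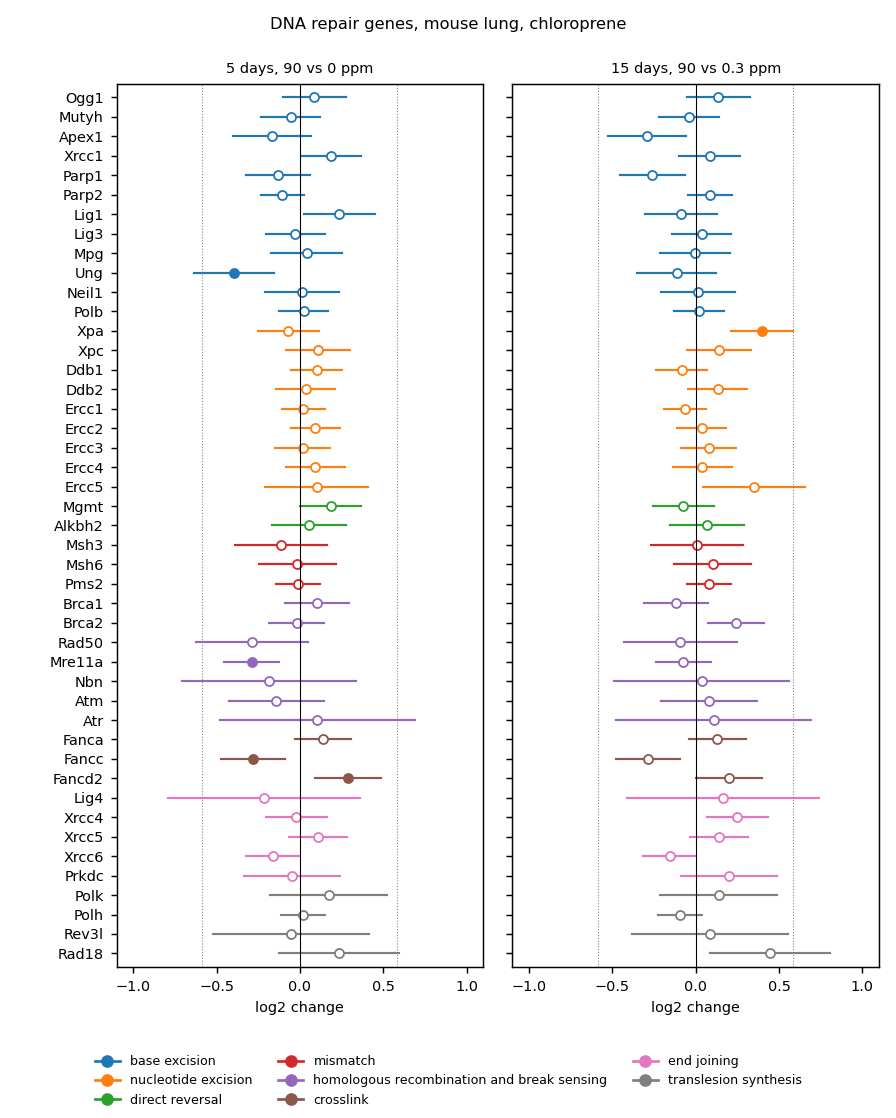
Change of each of the 45 tested DNA repair genes in mouse lung at 90 ppm, after 5 days against 0 ppm and after 15 days against 0.3 ppm. Circles are log2 changes, filled where the adjusted p was under 0.05, lines are 95% confidence intervals, colours are repair routes and dotted lines mark 1.5-fold. The filled circles are Ung, Mre11a, Fancc and Fancd2 after 5 days and Xpa after 15 days, and every filled circle lies inside the dotted lines.

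**Figure D2:**
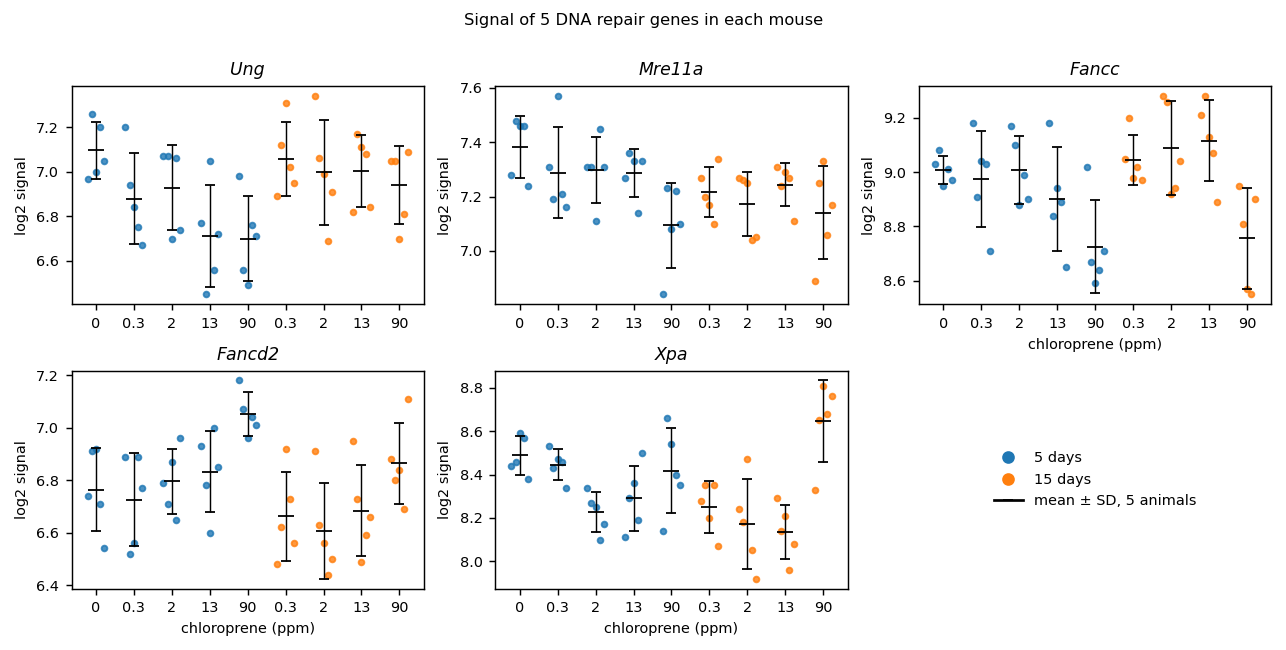
Log2 signal of the 5 called mouse genes in every mouse, by concentration and time, with the mean and SD of 5 animals in black. Fancd2 is higher in every mouse at 90 ppm for 5 days than in any mouse at 0 ppm, and Xpa at 90 ppm for 15 days lies above the 0.3 ppm mice except in 1 animal.

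The upstream sequences of the called mouse genes are shown because the NRF2 target genes, which many cells switch on through the antioxidant response element, rose in the same lungs: 14 of 14 tested passed at 90 ppm for 5 days. Of the 47 members 38 had a window in the RefSeq table of build GRCm38.p6, 250 bases before to 50 after the start of the gene, and Fancd2 had none. The letters TGACNNNGC, the core of that element, were searched on both strands. They occurred in 12.4% of 32851 mouse windows and in 5 of the 45 windows of members (11.1%), those of Neil1, Mgmt, Pms2, Brca2 and Mre11a. Capitals mark the match, which only the Mre11a window of these 4 holds.
Ung, chr5:114130185-114130484, plus strand: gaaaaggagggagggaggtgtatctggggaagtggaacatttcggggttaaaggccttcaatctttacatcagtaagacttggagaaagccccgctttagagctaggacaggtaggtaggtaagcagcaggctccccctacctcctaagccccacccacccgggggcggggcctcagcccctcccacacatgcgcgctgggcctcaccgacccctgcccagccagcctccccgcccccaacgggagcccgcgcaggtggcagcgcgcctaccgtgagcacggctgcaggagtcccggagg
Mre11a, chr9:14784404-14784703, plus strand: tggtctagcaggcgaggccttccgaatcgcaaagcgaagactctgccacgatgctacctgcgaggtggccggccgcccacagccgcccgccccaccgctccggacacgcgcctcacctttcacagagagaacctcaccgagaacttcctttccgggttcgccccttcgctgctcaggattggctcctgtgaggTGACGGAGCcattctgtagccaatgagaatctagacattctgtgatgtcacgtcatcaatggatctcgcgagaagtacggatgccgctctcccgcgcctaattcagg
Fancc, chr13:63431696-63431995, minus strand: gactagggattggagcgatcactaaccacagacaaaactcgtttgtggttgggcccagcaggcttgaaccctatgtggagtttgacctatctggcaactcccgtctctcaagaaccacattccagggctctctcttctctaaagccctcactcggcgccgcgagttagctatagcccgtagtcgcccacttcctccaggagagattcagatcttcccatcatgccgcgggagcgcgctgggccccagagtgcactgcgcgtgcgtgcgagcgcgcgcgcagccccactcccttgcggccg
Xpa, chr4:46196262-46196561, minus strand: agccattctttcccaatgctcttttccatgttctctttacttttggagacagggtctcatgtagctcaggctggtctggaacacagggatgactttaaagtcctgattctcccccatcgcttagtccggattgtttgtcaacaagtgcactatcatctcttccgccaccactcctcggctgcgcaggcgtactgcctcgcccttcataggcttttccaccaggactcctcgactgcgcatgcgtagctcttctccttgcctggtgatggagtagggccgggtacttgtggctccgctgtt
A match is a string of letters and not a measured site.

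In limma 6 of 45 mouse members (13.3%) had an unadjusted p under 0.05 after 5 days at 90 ppm, beside 27.8% of all genes. After 15 days there were 9 (20%), beside 19.6%. By repair route, few mouse members were called. Of the 12 base excision genes tested 1 was called lower (Ung) after 5 days at 90 ppm, and the 12 changes ran from -0.40 to 0.24 (Lig1) with a median of -0.01. The oxoguanine glycosylase Ogg1 changed by 0.09 ± 0.09 (SE, adjusted p = 0.609), the alkyladenine glycosylase Mpg by 0.04 ± 0.10 (adjusted p = 0.862), the gap-filling polymerase Polb by 0.02 ± 0.07 (adjusted p = 0.899) and the scaffold Xrcc1 by 0.19 ± 0.09 (adjusted p = 0.166). None of these 4 passed after 15 days either, when their changes were 0.14, -0.01, 0.02 and 0.08. The Polb interval after 5 days ran from -0.13 to 0.17, the narrowest among these 4 genes.

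None of the 9 nucleotide excision genes passed after 5 days, when the changes ran from -0.07 (Xpa) to 0.11 (Xpc). The damage sensors Xpc and Ddb2 changed by 0.11 ± 0.10 (SE, adjusted p = 0.499) and 0.04 ± 0.09 (adjusted p = 0.854) after 5 days, and by 0.14 (adjusted p = 0.468) and 0.13 (adjusted p = 0.451) after 15. In the same comparison the p53 target Cdkn1a, a cell cycle inhibitor, rose by 1.27 ± 0.17 (SE, adjusted p = 3.17e-07). Of 17 p53 targets tested, Cdkn1a among them, 5 were called higher and 1 lower. Mgmt, which lifts alkyl groups off guanine, changed by 0.18 ± 0.09 (SE, adjusted p = 0.186) after 5 days and by -0.07 (adjusted p = 0.762) after 15.

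Among the genes of broken ends, Brca1 changed by 0.10 ± 0.10 (SE, adjusted p = 0.526) after 5 days at 90 ppm and by -0.12 (adjusted p = 0.577) after 15. The damage kinase Atm changed by -0.14 ± 0.14 (SE, adjusted p = 0.578) and 0.08 (adjusted p = 0.851). Xrcc6, the Ku subunit that caps broken ends, changed by -0.16 ± 0.08 at both times (SE, adjusted p = 0.181 and 0.267). None of the 5 end joining, 3 mismatch or 4 translesion genes passed in either 90 ppm comparison.

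At the lower concentrations limma called 0 of 45 mouse members in each comparison. Of all genes 0%, 1.2% and 1.3% were called at 0.3, 2 and 13 ppm for 5 days, and 0.109% and 0.326% at 2 and 13 ppm for 15 days. At an unadjusted p under 0.05 there were 0, 3 and 3 members after 5 days (0%, 6.67% and 6.67%), beside 3.73%, 12.6% and 11.4% of all genes. After 15 days there were 1 and 1 (2.22% each), beside 3.73% and 5.81%. At 13 ppm for 5 days the count was 1 without mouse 149 or mouse 152. The difference between the 15-day and the 5-day change from 0.3 to 90 ppm was called for 0 members, beside 0.0435% of all genes. At an unadjusted p under 0.05 it was 5 members (11.1%), beside 6.39% of all genes.

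Of 64 other tested DNA repair genes, 5 were called higher and 0 lower at 90 ppm for 5 days, beside 8.99% and 7.35% of all genes, so the count is no larger than the share over all genes would give. H2ax, the histone that is phosphorylated beside a break, rose by 0.77 ± 0.10 (SE, adjusted p = 1.89e-07), and it was called higher at 13 ppm (0.52, adjusted p = 0.00142) and at 2 ppm (0.38, adjusted p = 0.0393) too, while after 15 days at 90 ppm its change was -0.01 (adjusted p = 0.984). Ube2t, the enzyme that attaches ubiquitin to Fancd2, rose by 0.61 (adjusted p = 0.00219). Rev1, a translesion polymerase that works with Rev3l, rose by 0.43 (adjusted p = 0.0253), the recombination protein Rad51c by 0.38 (adjusted p = 0.00454) and the single-strand binding protein Rpa1 by 0.28 (adjusted p = 0.0404). After 15 days at 90 ppm 2 of the 64 were called, Rev1, at 0.58 (adjusted p = 0.00502), and Mnat1, at 0.37 (adjusted p = 0.0153).

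Some other gene groups moved beside these values. At 90 ppm for 5 days 6 of 13 mitosis genes and 1 of 26 replication genes were called higher. Of all genes 8.99% were called higher and 7.35% lower, so the replication count is no larger than the share over all genes would give. The proliferation marker Mki67 changed by 0.05 ± 0.24 (SE, adjusted p = 0.934). B cell markers were called lower in 5 of 6 cases, and their summed signal ran from 731.0 to 1099 at 90 ppm against 1845 to 2419 at 0 ppm. Of T and natural killer cell markers 7 of 9 were lower, and of ciliated cell markers 6 of 9 were higher. The part of these shifts in the members' values was not tested. In whole lung, fewer cells of a type and less RNA per cell cannot be told apart.

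In rat lung more members were called after 5 days, nearly all of them lower, but most of these calls were lost when certain single rats, reference or exposed, were left out. At 90 ppm for 5 days against 5 ppm, 12 of 40 members passed (30%), 2 higher and 10 lower, beside 23.6% of all genes, 4.13% higher and 19.5% lower. At 200 ppm, 10 of 40 passed (25%), 1 higher and 9 lower, beside 36.3% of all genes, 4.68% higher and 31.6% lower. The median change of the members was -0.14 at 90 ppm and -0.10 at 200 ppm, and that of all genes was -0.14 at each, so the members' median lay close to that of all genes. The comparisons share their 5 ppm rats.

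Rev3l, the catalytic subunit of translesion polymerase zeta, had the largest change. Its signal was 8.06, 8.46, 9.09, 9.37 and 9.82 in the 5 rats at 5 ppm, 9.83, 10.00, 10.06, 10.10 and 10.19 at 90 ppm, and 9.56, 10.05, 10.06, 10.08 and 10.15 at 200 ppm. The exposed rats lay close together and the reference rats were spread widely, with rats 217 and 219 lowest. The change was 1.08 ± 0.33 (SE, adjusted p = 0.0291) at 90 ppm and 1.02 ± 0.33 (SE, adjusted p = 0.0188) at 200 ppm, a 2.11-fold and a 2.03-fold rise. At 30 ppm 4 rats read 10.01 to 10.18 and rat 239 read 8.40. The title of rat 239 has another form than those of the other rats in its group, and the labels do not say why.

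Of the base excision genes, 5 of 13 were called lower at each of the higher concentrations, where 19.5% of all genes at 90 ppm and 31.6% at 200 ppm were called lower. Mpg read 7.70, 7.97, 8.01, 8.22 and 8.61 at 5 ppm, 7.53, 7.56, 7.58, 7.66 and 7.77 at 90 ppm and 7.55, 7.58, 7.71, 7.77 and 7.86 at 200 ppm. The lowest reference rat, 222, lay inside both exposed ranges and rat 217 was far above them. The change was -0.48 ± 0.16 (SE, adjusted p = 0.0355) at 90 ppm and -0.41 ± 0.16 (SE, adjusted p = 0.0438) at 200 ppm.

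Apex1, the endonuclease that cuts at the site a glycosylase leaves, read 9.63, 9.81, 9.81, 9.92 and 10.17 at 5 ppm, 9.40, 9.42, 9.49, 9.55 and 9.65 at 90 ppm and 9.33, 9.34, 9.41, 9.41 and 9.61 at 200 ppm. No rat at 200 ppm reached the lowest reference rat. The change was -0.36 ± 0.12 (SE, adjusted p = 0.0311) and -0.45 ± 0.12 (SE, adjusted p = 0.00542).

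Ung read 8.01, 8.23, 8.24, 8.30 and 8.66 at 5 ppm, 7.80, 7.83, 7.89, 7.99 and 8.04 at 90 ppm and 7.86, 8.00, 8.02, 8.12 and 8.17 at 200 ppm. It passed at 90 ppm (-0.38 ± 0.11, SE, adjusted p = 0.0238) and not at 200 ppm (-0.25 ± 0.11, SE, adjusted p = 0.0606). The other base excision genes called were the scaffold Xrcc1, lower by -0.34 and -0.33 at 90 and 200 ppm, the thymine glycosylase Tdg, by -0.27 and -0.32, and at 200 ppm alone the strand break sensor Parp1, by -0.26. The glycosylase Ogg1 and the polymerase Polb did not pass at 200 ppm, with changes of -0.20 ± 0.10 (SE, adjusted p = 0.109) and -0.07 ± 0.07 (SE, adjusted p = 0.408).

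In nucleotide excision repair, Ercc1, a subunit of the nuclease that cuts on the 5′ side of a lesion, read 8.81, 9.02, 9.14, 9.31 and 9.61 at 5 ppm, 8.67, 8.74, 8.74, 8.76 and 8.88 at 90 ppm and 8.60, 8.65, 8.69, 8.78 and 8.83 at 200 ppm. Rat 222 overlapped the exposed rats and the other 4 reference rats did not. The change was -0.42 ± 0.14 (SE, adjusted p = 0.0354) and -0.47 ± 0.14 (SE, adjusted p = 0.0120). The helicase Ercc3 was lower by -0.29 and -0.28 (adjusted p = 0.0358 and 0.0250), and Ercc6, which handles lesions in transcribed genes, was higher at 90 ppm by 0.29 (adjusted p = 0.0454). Xpc and Ddb2 did not pass at 200 ppm, with changes of 0.01 ± 0.07 (SE, adjusted p = 0.882) and -0.21 ± 0.09 (SE, adjusted p = 0.0665).

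Alkbh2, a dioxygenase that reverses alkylation and etheno lesions directly, read 7.15, 7.15, 7.36, 7.50 and 7.83 at 5 ppm, 6.83, 7.04, 7.07, 7.13 and 7.33 at 90 ppm and 6.67, 6.83, 6.92, 7.07 and 7.14 at 200 ppm. Every rat at 200 ppm lay below the reference rats, and 1 of the rats at 90 ppm did not. It passed at 200 ppm (-0.47 ± 0.18, SE, adjusted p = 0.0402). Mgmt changed by -0.25 ± 0.13 at 200 ppm (SE, adjusted p = 0.129). The Ku subunit Xrcc6 was lower by -0.25 at both concentrations (adjusted p = 0.0412 and 0.0283), and the crosslink genes Fanca and Fancc were lower at 90 ppm by -0.31 and -0.29 (adjusted p = 0.0225 and 0.0287) and did not pass at 200 ppm. Fanca was dim, with a mean of 6.50 over all rats, under the signal filter of 6.65. Among the 5 ppm rats only rat 217, at 6.84, lay above that filter, and the others read 6.50 to 6.55.

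Single rats decided these counts. Without rat 217 of the 5 ppm group, the count of called members was 0 at 90 ppm and 2 at 200 ppm. Without rat 219 the counts were 1 and 5, and without rat 222 they were 24 and 16. At 90 ppm the count was 5 without reference rat 221, and 3, 1, 5 and 2 without exposed rats 250, 251, 252 and 253. At 200 ppm it was 5 without rat 266 and 5 without rat 268. The Apex1 and Tdg calls at 200 ppm were lost in 0 of these 10 fits, while every call at 90 ppm was lost in at least 1. RNA integrity numbers differed between the groups, with medians of 8.3 at 5 ppm, 9.2 at 90 ppm and 7.65 at 200 ppm. With that number as a covariate, limma called 0 members at 90 ppm (and 17 genes in all) and 6 at 200 ppm. The numbers ran from 7.3 to 8.5 at 5 ppm and from 9.2 to 9.3 at 90 ppm, without overlap. From these groups alone RNA integrity therefore cannot be told apart from concentration, and at 90 ppm the fit relies on a slope shared by all rat groups. With the difference between 3′ and 5′ control probe sets as a covariate limma called 21 and 19 members.

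**Figure D3:**
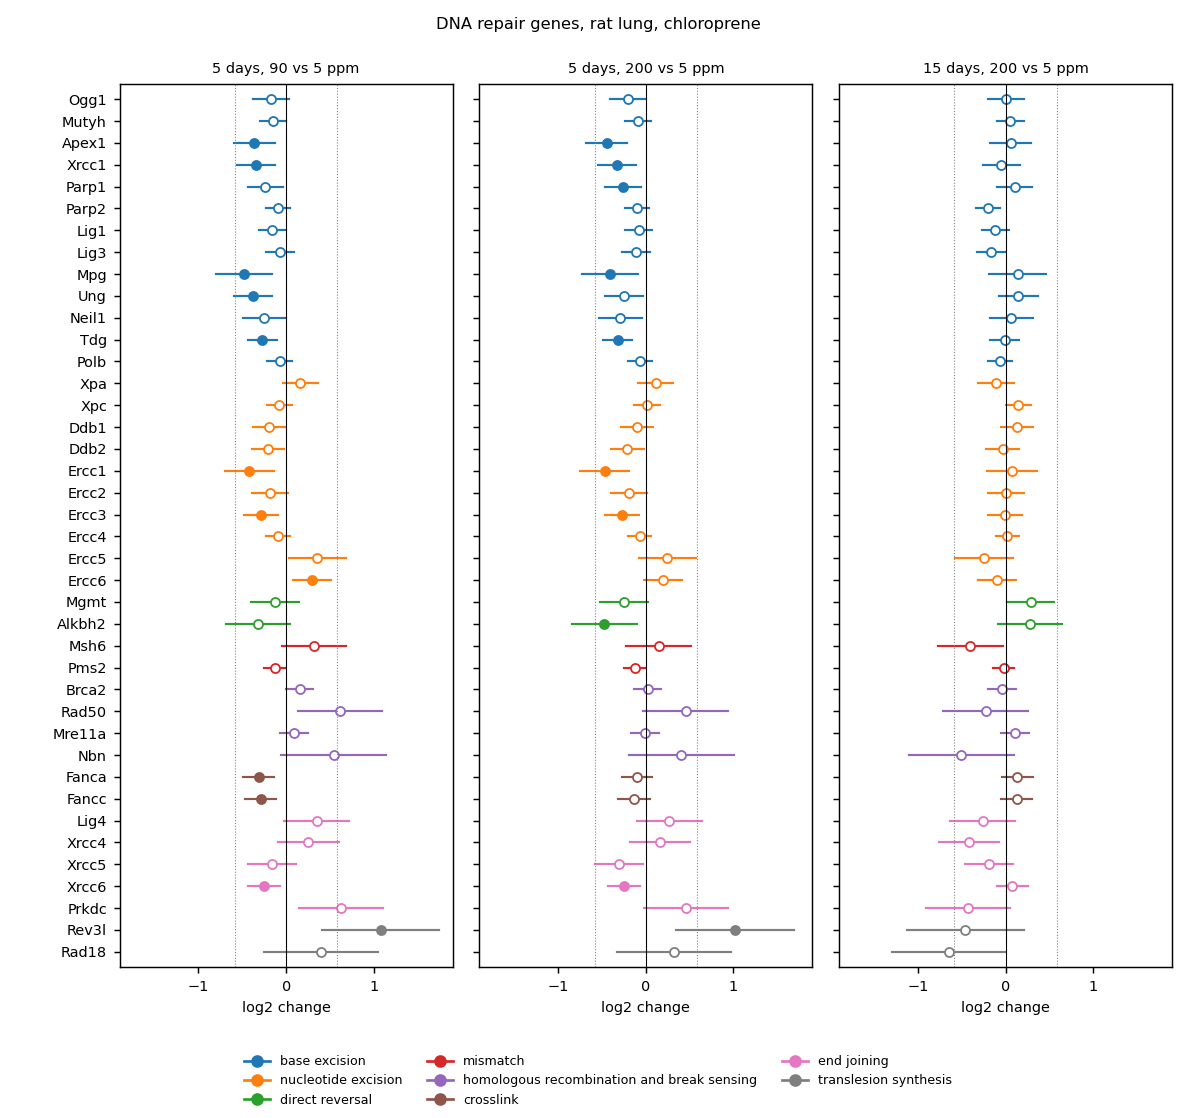
Change of each of the 40 tested DNA repair genes in rat lung against 5 ppm, at 90 and 200 ppm after 5 days and at 200 ppm after 15 days. Symbols are as for the mouse plot: circles are log2 changes, filled where the adjusted p was under 0.05, lines are 95% confidence intervals and dotted lines mark 1.5-fold. Filled circles number 12, 10 and 0, and Rev3l is the 1 filled circle beyond 1.5-fold.

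**Figure D4:**
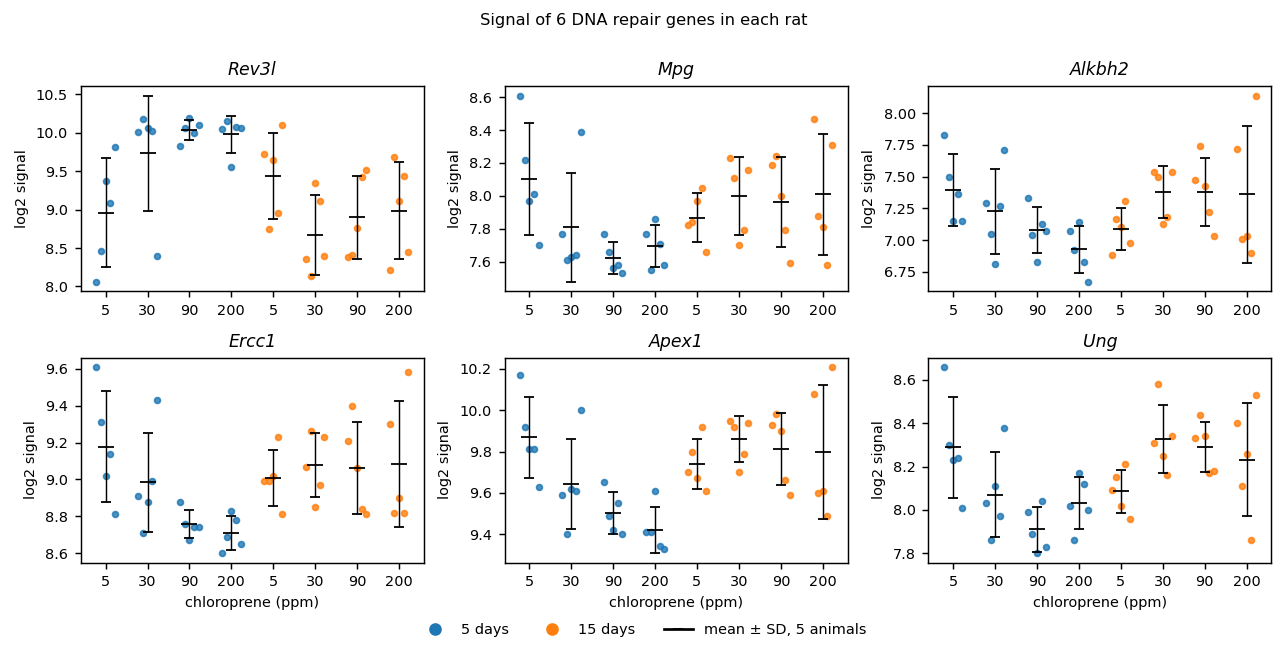
Log2 signal of the 6 rat genes with the largest called changes in every rat, by concentration and time, with the mean and SD of 5 animals in black. At 5 ppm for 5 days the points of each gene are spread widely, and rat 217 is lowest for Rev3l and highest for the other 5 genes.

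After 15 days no rat member passed. Limma called 0 of 40 at 30, 90 and 200 ppm against 5 ppm, beside 1.66%, 0.309% and 0.817% of all genes. At an unadjusted p under 0.05 there were 12, 3 and 5 members (30%, 7.5% and 12.5%), beside 25.7%, 13.5% and 17.9% of all genes. At 30 ppm for 5 days limma called 0 members, beside 0% of all genes, and 2 without rat 239. At an unadjusted p under 0.05 there were 3 members (7.5%), beside 13.4% of all genes. At 200 ppm for 15 days Ogg1, Xrcc1, Polb, Mpg, Xpc, Ddb2 and Xrcc6 changed by 0.01, -0.05, -0.06, 0.14, 0.14, -0.03 and 0.08, and Mgmt by 0.29 ± 0.13 (SE, adjusted p = 0.257). The intervals of 31 of the 40 members lay within 1.5-fold. Those that did not were Alkbh2, Msh6, Rad50, Nbn, Lig4, Xrcc4, Prkdc, Rev3l and Rad18.

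The change from 5 to 200 ppm differed between the times for 2 of 40 members (5%), beside 11.4% of all genes, 8.81% higher and 2.62% lower. Apex1 differed by 0.51 ± 0.16 (SE, adjusted p = 0.0449), since it was lower after 5 days and changed by 0.06 after 15. Rev3l differed by -1.48 ± 0.47 (SE, adjusted p = 0.0435), since it was higher after 5 days and changed by -0.46 after 15. At 15 days Rev3l read 8.75, 8.96, 9.65, 9.72 and 10.10 at 5 ppm and 8.22, 8.45, 9.11, 9.44 and 9.69 at 200 ppm, and the groups overlapped. The count ran from 0 to 19 as single rats were left out. It was 0 without any 1 of rats 217, 219, 221, 225, 227, 229, 265, 266, 268, 269, 277 and 282, and 5, 19, 11, 7, 15, 5 and 14 without rats 220, 222, 228, 267, 279, 280 and 281. The titles of rats 269 and 282 have another form than those of the other rats in their groups, and the labels do not say why.

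Ung and Fancc were called lower in both species after 5 days at 90 ppm, among 38 members tested in both. Ung changed by -0.40 in mice against 0 ppm and by -0.38 in rats against 5 ppm, and Fancc by -0.28 and -0.29. The references differ in concentration, and the overlap was not tested. Of these 38 members 3 were called in mice and 10 in rats, so the shared genes are 2 of 3 and 2 of 10. In these comparisons 7.35% of all mouse genes and 19.5% of all rat genes were called lower. As single animals were left out, the Fancc call was lost in 8 of 10 mouse fits and 5 of 10 rat fits. The Ung call was lost in 2 and 3 of them. Both rat calls were lost without rat 217, and also with the RNA integrity number as covariate.

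Beside the rat values, other markers moved at 5 days too. All 4 tested mesothelium markers were called lower at 90 and at 200 ppm, and their summed signal was 6835 to 8982 and 7225 to 7989 against 9557 to 12684 at 5 ppm. Of 4 cardiac muscle markers 3 were called higher, with a summed signal of 434.2 to 1356 and 274.3 to 1687 against 195.7 to 399.9. Erythroid markers were lower in 3 of 3 and 2 of 3 cases, with a summed signal of 911.6 to 1441 and 729.0 to 1606 against 1773 to 2759. The part of these tissues in the members' values was not tested. Of 52 other tested DNA repair genes 2 were higher and 5 lower at 90 ppm, and 1 was higher and 10 lower at 200 ppm, beside 23.6% and 36.3% of all genes called in either direction. The helicase Wrn was higher by 1.25 (adjusted p = 0.0338) at 90 ppm, Nhej1 lower by -0.43 (adjusted p = 0.0363) and H2ax lower by -0.41 (adjusted p = 0.0328). At 200 ppm the largest were H2ax (-0.41, adjusted p = 0.0203), the polymerase zeta subunit Mad2l2 (-0.40, adjusted p = 0.0140) and the nuclease Dclre1c (0.39, adjusted p = 0.0200).

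The largest differences among rat members were between animals of 1 group. The within-group SD was 0.55 for Rev3l, 0.53 for Rad18 and 0.49 for Nbn, against a median of 0.16 over the members and 0.18 over all genes. Rad18 was dim, with a mean of 6.59 over all rats, under the signal filter of 6.65. The deviations of animals from their group means were shared between genes. Over 40 rats, each gene taken as its deviation from the group mean, 33 of 39 other members were correlated with Rev3l at an adjusted p under 0.05 by both Pearson's r and Spearman's rho (permutation within groups, 100000 resamples, adjusted over the 39 relations). Of these 10 were positive and 23 negative. The share of all genes passing this rule was not computed. An absolute r of at least 0.5 was reached by 79.5% of the members and by 72.9% of 11009 other genes. Rev3l was chosen as the axis after its values were seen.

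Prkdc, the kinase that Ku calls to a broken end, was the closest, with r = 0.95 and rho = 0.94 (permutation p = 1e-05 for each, the smallest that these resamples can give, adjusted p = 1.6e-05 and 1.8e-05). Without the 2 rats farthest from the median of Rev3l its r was 0.93. Nbn (r = 0.94), Lig4 (0.93), Rad50 (0.92), Rad18 (0.90) and Msh6 (0.89) followed. On the other side were Ddb1 (r = -0.92), Ercc3 (-0.91), Mpg (-0.90), Ercc1 (-0.89) and Apex1 (-0.88), and without the same 2 rats these 5 were at -0.88, -0.89, -0.87, -0.86 and -0.85. Polb, at r = 0.14 and rho = 0.12 (permutation p = 0.39 and 0.46), was among the 6 that did not pass.

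**Figure D5:**
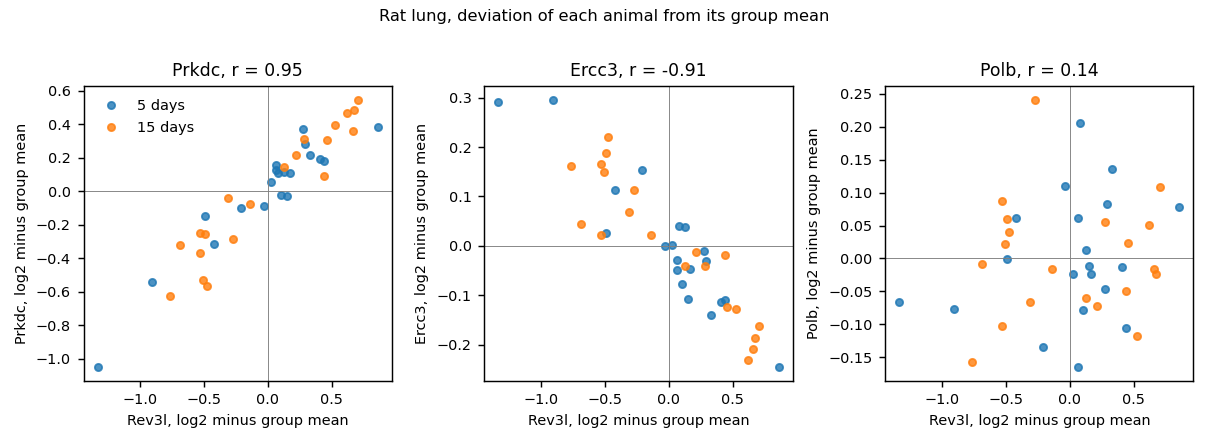
Deviation of each of 40 rats from its group mean, in log2 units, for Prkdc, Ercc3 and Polb against Rev3l, with 5-day rats in blue and 15-day rats in orange. Prkdc rises with Rev3l (r = 0.95), Ercc3 falls (r = -0.91) and Polb shows little relation (r = 0.14).

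Much of the array varied with Rev3l in the same way. An absolute r of at least 0.7 with Rev3l was reached by 26 of 39 rat members (66.7%) and by 53.1% of 11009 other genes. In mice 33 of 44 members were correlated with Rev3l by the same permutation rule over 45 arrays, 13 positively and 20 negatively. The share of all mouse genes passing that rule was not computed either. An absolute r of 0.7 was reached by 25.0% of mouse members and 17.4% of 13795 other genes. An absolute r of at least 0.5 was reached by 61.4% of mouse members and by 44.0% of other mouse genes. The mouse extremes were the damage kinase Atr (r = 0.96) and Mpg (r = -0.73). Members on the positive side tended to be longer genes. Their median span in the mouse RefSeq table was 46.4 kb in the rat set and 61.9 kb in the mouse set, against 25.6 and 25.4 kb on the negative side. Across members the rank correlation of r with span was 0.46 in the rat (39 members) and 0.44 in the mouse (44 members). It is a description, since the members share arrays.

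The correlation of Rev3l with the RNA integrity number passed in neither species, with r = 0.04 and rho = 0.11 over 38 rats (permutation p = 0.81 and 0.57) and r = -0.35 and rho = -0.18 over 40 mice (permutation p = 0.11 and 0.32). With the 3′ to 5′ difference r was 0.48 and rho 0.42 over 40 rats (permutation p = 0.014 and 0.018, adjusted over 4 relations 0.056 and 0.072), and r fell to 0.26 without the 2 farthest rats. In mice it was 0.29, with rho 0.20 (permutation p = 0.15 and 0.26). Tested gene by gene within groups, 0 of 45 mouse members and 4 of 40 rat members (10%) had a slope on the 3′ to 5′ difference at an adjusted p under 0.05, beside 4.22% and 14.1% of all genes. The 4 were Rev3l itself (2.93 log2 per unit, adjusted p = 0.0367 in limma), Prkdc (adjusted p = 0.0422), Lig4 (0.0470) and Msh6 (0.0493). Each of these slopes was positive. No member had a called slope on the RNA integrity number, beside 0.00725% and 0% of all genes, with 8 mouse and 1 rat members at an unadjusted p under 0.05 in limma.

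The members left out of the tests were few. In the mouse Ercc6 lay under the signal filter, and Tdg was represented only by probe sets that carry several symbols. In the rat Msh3, Brca1, Atr, Fancd2, Polk and Polh lay under the filter, so that Brca1 and Fancd2 have no test there, and no probe set was annotated to Atm.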

How the data were processed

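RNA from single lungs was hybridised to Affymetrix Mouse430_2 arrays (45 mice, 9 groups) or Rat230_2 arrays (40 rats, 8 groups). The authors' deposited tables hold log2 values. They span 3.47 to 15.34 for mice and 3.07 to 15.14 for rats. How they were summarised and normalised is not given in the sources used here, so a limit set by background on single probes could not be applied. Gene symbols came from the platform annotation, and of the probe sets 34958 in the mouse and 20832 in the rat carry 1 symbol.

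Probe sets had to lie above the 40th percentile of the species' table (6.67 and 6.65 log2) on at least 5 arrays, and the brightest such probe set on average stood for its gene. Mice and rats had separate models (lmFit and eBayes of limma 3.58.1, R 4.3.3) with 1 mean for each group. The two-sided p-values took the Benjamini-Hochberg adjustment across every gene tested. A gene was called at an adjusted p under 0.05. The fit was tested on simulated data. Groups come from the titles. The animals are single arrays each, so their number sets the precision. A change had a median SE of 0.10 log2 in mice and 0.11 in rats.

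The text names every member called, and Ogg1, Xrcc1, Polb, Mpg, Xpc, Ddb2, Mgmt, Brca1, Atm and Xrcc6 whatever their result. The members and lists were chosen with earlier results of these data known. Alternatives changed the filter, the normalisation, the choice of probe set, the variance model, the arrays in the fit, the reference, the animals and the RNA quality covariates. The 3′ to 5′ difference is the log2 difference between control probe sets at the ends of Gapdh and beta-actin transcripts.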

Additional observations from a re-analysis of the deposited data

Results flagged for a closer look

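Of 112 groups of 5 animals examined for the called and fixed members, 6 (5.36%) held an animal whose distance from its nearest neighbour took up more than 0.71 of the group's range, and chance gives about 1 in 20. In mice these were Fancc in mouse 165 at 90 ppm for 5 days, with 9.02 against 8.59 to 8.71 in the other 4, and Xrcc1 in mouse 127 at 0.3 ppm for 15 days, with 8.71 against 8.99 to 9.09. In rats after 5 days they were Fanca in rat 217 at 5 ppm, with 6.84 against 6.50 to 6.55, and at 200 ppm Apex1 in rat 267, with 9.61 against 9.33 to 9.41. The same rat 267 stood apart for Rev3l, with 9.56 against 10.05 to 10.15, and rat 265 for Xpc, with 9.74 against 9.60 to 9.64.

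The change from 5 to 200 ppm in rats differed between 15 and 5 days for Apex1, by 0.51 log2 (adjusted p = 0.0449), and for Rev3l, by -1.48 log2 (adjusted p = 0.0435), each by the contrast of the changes in limma. Neither passed once RNA integrity, or the difference between 3′ and 5′ control probe sets, was a covariate.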

How the results depend on the processing

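No paired analysis was possible because every animal has a number of its own. In mice at 90 ppm for 5 days the 4 called members became 1 (Fancc) with a filter at the 60th percentile, under which the other 3 lay, 2 (Ung and Fancd2) with the mean of all kept probe sets, 1 (Mre11a) with the RNA integrity number as covariate, which leaves 2 of the 5 control mice, and 1 (Fancd2) with 0.3 ppm as reference. Quantile normalization and the 3′ to 5′ difference each ended the Fancc call and left 3. In rats quantile normalization ended the Ercc6 call at 90 ppm, leaving 11, and the Parp1, Mpg and Ercc3 calls at 200 ppm, leaving 7. Mre11a reversed on its second probe set, at 0.054. At 90 ppm for 15 days the 1 call became 2 with the RNA integrity number, 2 with every kept probe set as its own feature, 0 without mice of conflicting duration and 0 without mice with a lettered number. In rats after 5 days the 12 calls at 90 ppm became 0 with the RNA integrity number and 21 with the 3′ to 5′ difference, and the 10 at 200 ppm became 6 and 19. RNA integrity numbers did not overlap between 5 and 90 ppm. From these groups alone that covariate cannot be told apart from concentration, and the fit relies on a slope shared by all rat groups. With no filter the rat counts after 15 days were 2 at 30 ppm, 1 at 90 ppm and 1 at 200 ppm. The 2 calls of the rat time difference became 0 with no filter, 4 with quantile normalization (3 higher and 1 lower), 0 with the RNA integrity number, 0 with the 3′ to 5′ difference and 1 with every kept probe set as its own feature. The cause of these moves was not tested, apart from the genes and animals that an alternative leaves out.

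Leaving out single animals gave counts of 0 to 1 in mice at 13 ppm and 2 to 4 at 90 ppm for 5 days, and 1 to 4 at 90 ppm for 15 days. In rats it gave 0 to 2 at 30 ppm, 0 to 24 at 90 ppm and 2 to 16 at 200 ppm for 5 days, and 0 to 19 for the time difference, while the other 8 comparisons stayed at 0.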
